A study of Mus musculus with 9 samples.

Results

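The genes of the 4 p38 mitogen-activated protein (MAP) kinases, of the kinases that switch them on, of an effector kinase below them and of the Gadd45 proteins were followed in HC11 mouse mammary epithelial cells carrying a FoxF1 or an NFI-C2 construct. They are Mapk11, Mapk12, Mapk13, Mapk14, Map2k3, Map2k6, Mapkapk2, Gadd45a, Gadd45b and Gadd45g. They were taken by symbol, as 10 of the 19935 genes with a transcript cluster of 1 symbol, and all 10 were among the 18497 genes tested. A transcript cluster is the group of probes for 1 transcript. Each of the 10 genes had 1 cluster, of 24 to 44 probes.

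HC11 is a clone of the COMMA-1D mammary line of BALB/c origin, and all 3 groups were grown in the same medium with insulin and epidermal growth factor. The study states that this line carries a mutant p53. FoxF1 belongs to the forkhead family of transcription factors, and NFI-C2 to the nuclear factor I family, whose members bind DNA at TTGGC. One group carried the FoxF1 construct by stable transfection, and another the NFI-C2 construct, which encodes a stable form of the protein that the study names NFI-C2S. The third group is here named wild type after the sample labels. The methods describe it as expressing the vector alone, while the study's results speak of wild type cells. Whether the control cells were transfected is thus unclear, and the part of transfection in changes shared by both constructs was not tested. Total RNA of 3 preparations per group, grown and harvested separately, was hybridised to Affymetrix mouse gene arrays, 9 in all. The methods speak of pools of cells. Whether pools were transfected separately, and which promoter drives each construct, is not given in the sources used here, so that p-values measure the spread between these preparations only.

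p38 kinases are the stress branch of the MAP kinases. The kinases Map2k3 (MKK3) and Map2k6 (MKK6) phosphorylate p38, which in turn phosphorylates transcription factors and kinases such as Mapkapk2 (MK2), through which it acts on Hsp27 and on the stability of cytokine mRNAs. Gadd45 proteins are small proteins induced by growth arrest and DNA damage that bind the kinase Map3k4 above Map2k3 and Map2k6. The study asked at the protein level whether p38 is phosphorylated in FoxF1 cells. The arrays measured mRNA, which holds no information on phosphorylation.

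All values are log2 expression, centred on each cluster's median over the 9 arrays, so that they show differences between arrays and no level, and genes cannot be ranked by expression. Differences between group means were tested with limma in 1 fit over the 9 arrays, and a gene is said to have risen or fallen where its Benjamini-Hochberg adjusted p over all 18497 genes was under 0.05. Both comparisons with wild type share the 3 wild type arrays. The third comparison, FoxF1 against NFI-C2, tests whether the changes differ between both constructs. FoxF1 arrays were the most dispersed (SD over clusters 0.528 to 0.539), against 0.211 to 0.243 for NFI-C2 and 0.174 to 0.183 for wild type. The probes for Foxf1 did not pass the test in FoxF1 cells (difference 0.20, SE 0.14, adjusted p = 0.36) and fell in NFI-C2 cells by 1.24 (adjusted p = 8.2e-04). The probes for Nfic did not pass in NFI-C2 cells (-0.04, SE 0.072, adjusted p = 0.77), and whether either probe set covers the construct was not tested.

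In FoxF1 cells Gadd45a rose 10.7-fold and Mapk13, the gene of p38δ, fell to 8.5% of wild type. Map2k6 fell to 35.1%, and Mapk12 and Gadd45b each to 52.4%. In NFI-C2 cells Map2k6 rose 1.48-fold and Gadd45b fell to 68.1%. In FoxF1 cells 2 of the 10 genes rose, 5 fell and 3 did not pass the test, against 39.0% of all genes called (20.2% higher and 18.8% lower). A change of at least 1.5-fold was also met by 6 of the 10, against 16.0% of all genes. In NFI-C2 cells 3 rose, 3 fell and 4 did not pass, against 20.8% of all genes called (8.59% higher and 12.2% lower), and none of the 10 met the 1.5-fold criterion, against 5.09%. Between FoxF1 and NFI-C2 cells 4 were higher, 5 were lower and 1 did not pass, against 42.0% of all genes (22.9% higher and 19.1% lower). The arrays of both groups did not overlap for 9 of the 10 genes in FoxF1 against wild type cells (44.6% of all genes), for 7 in NFI-C2 against wild type cells (32.2%) and for all 10 in FoxF1 against NFI-C2 cells (46.6%). The median difference of the 10 genes was -0.17 in FoxF1 and 0.05 in NFI-C2 cells, beside medians of 0.0073 and 0.00092 over all genes tested.

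**Figure D1:**
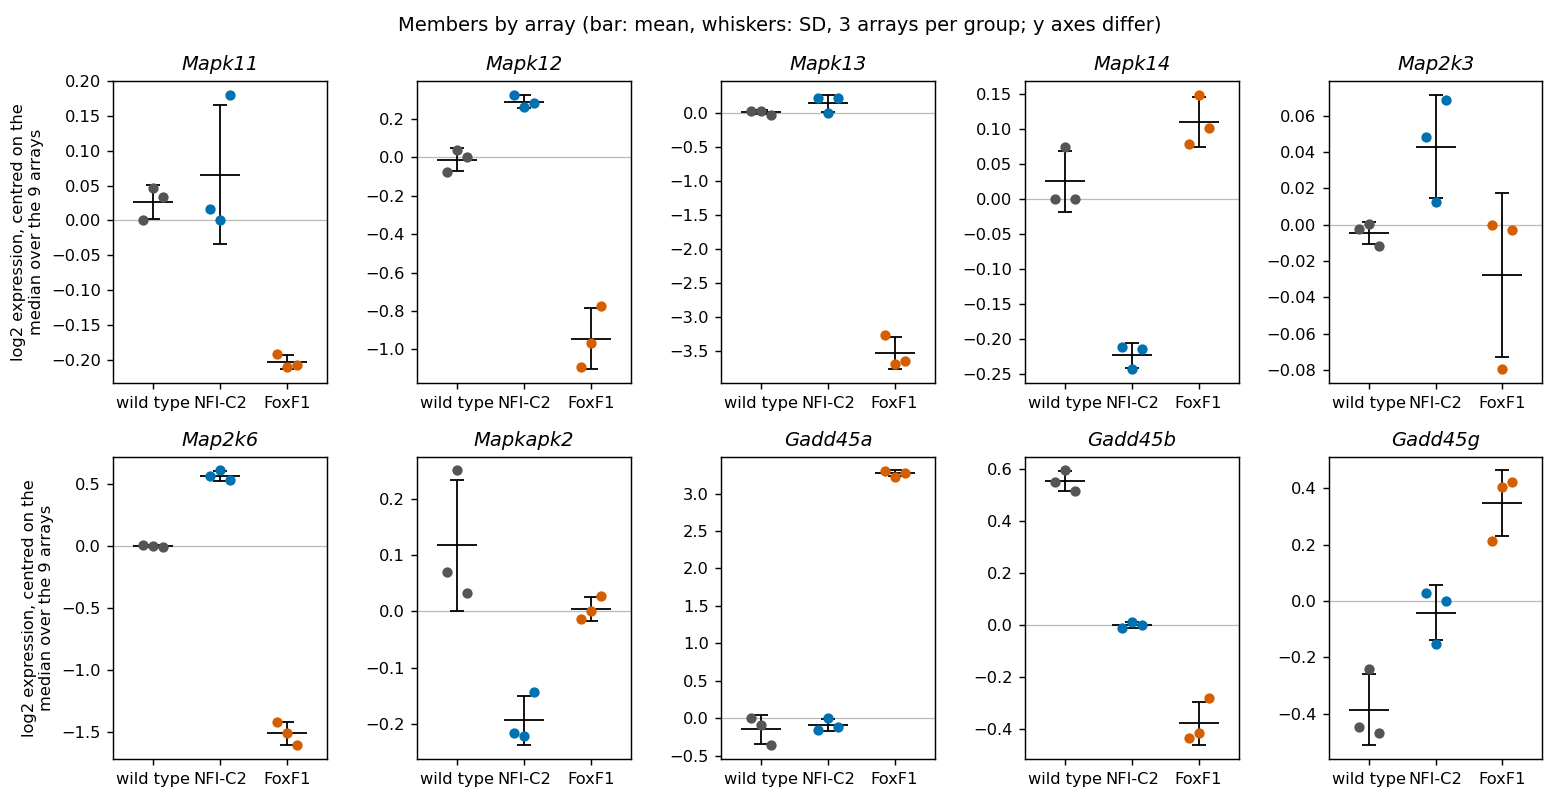
Log2 expression of the 10 genes on each array, centred on the median over the 9 arrays, with points for arrays, bars for the mean and whiskers for the SD of 3 arrays; the y axes differ between genes. Gadd45a was above 3 on the 3 FoxF1 arrays and Mapk13 below -3, while Gadd45b was highest on the 3 wild type arrays.

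Most markers of epithelial cells also fell in FoxF1 cells. Over all genes, 20.2% were called higher and 18.8% lower in FoxF1 cells, and 8.59% higher and 12.2% lower in NFI-C2 cells. Of 7 mammary epithelial markers, 6 fell in FoxF1 cells, among them Epcam (-6.58) and Cdh1 (E-cadherin, -5.82), while Krt19 had a difference of 0 (adjusted p = 1). The log2 values of the 7 markers summed to -32.3 to -27.7 on FoxF1 arrays, against 0.622 to 0.897 for NFI-C2 and 4.64 to 4.67 for wild type. In NFI-C2 cells 2 of the 7 fell (Krt18, -3.21, and Krt8, -1.13). Of 7 fibroblast markers 4 rose in FoxF1 cells, among them Pdgfrb by 3.69, with sums of 4.84 to 7.17 against -0.858 to -0.464 in wild type and -1.95 to -1.11 in NFI-C2 cells. Of 5 leukocyte markers 1 was higher in FoxF1 cells (Cd68, adjusted p = 0.049), which is near the share over all genes. The sums of this list were 0.0782 to 0.381 in FoxF1 cells against -0.25 to -0.0306 in wild type. Of 4 endothelial markers Kdr was higher and Pecam1 lower in FoxF1 cells, with sums of -1.43 to -0.961 against -0.201 to 0 in wild type. All 3 groups come from 1 epithelial line, so these lists are read as markers of cell state and not of a mixture of tissue cells. Whether all cells or a part of them changed cannot be told in such bulk samples. The part of these markers in the changes of the p38 and Gadd45 genes was not tested.

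The Gadd45 genes, at the top of the route, moved in different directions in FoxF1 cells. Gadd45a, a target of p53 and of the stress factor ATF4, read 3.30, 3.22 and 3.28 on the FoxF1 arrays, -0.16, 0 and -0.11 on the NFI-C2 arrays and 0, -0.093 and -0.36 on the wild type arrays. The 3 FoxF1 arrays stood apart from the other 6, among which NFI-C2 and wild type overlapped. Gadd45a rose by 3.42 (SE 0.090, adjusted p = 8.8e-08) in FoxF1 cells, the 22nd largest of the increases over all genes. In NFI-C2 cells its difference was 0.06 (95% confidence interval -0.15 to 0.27, adjusted p = 0.74), and FoxF1 cells were 10.3-fold above NFI-C2 cells (adjusted p = 8.7e-08).

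Gadd45b, known as a gene induced by TGF-β and NF-κB, was -0.44, -0.42 and -0.28 in FoxF1, -0.012, 0.0096 and 0 in NFI-C2 and 0.55, 0.59 and 0.52 in wild type cells. The 3 groups did not overlap, with wild type highest and FoxF1 lowest. It fell by 0.93 (SE 0.042, adjusted p = 1.4e-06) in FoxF1 and by 0.55 (SE 0.042, adjusted p = 1.2e-04) in NFI-C2 cells, and FoxF1 cells were lower than NFI-C2 cells by 0.38 (adjusted p = 1.8e-04). Gadd45g, the third member of the family, was 0.21, 0.40 and 0.42 in FoxF1, 0.028, -0.15 and 0 in NFI-C2 and -0.45, -0.24 and -0.47 in wild type cells. The order of the groups was the reverse of that of Gadd45b, again without overlap. Gadd45g rose by 0.73 (1.66-fold, SE 0.085, adjusted p = 2.7e-04) in FoxF1 cells and by 0.34 (SE 0.085, adjusted p = 0.026) in NFI-C2 cells, and the groups differed by 0.39 (adjusted p = 0.0069). The call in NFI-C2 cells was lost, with adjusted p of 0.082 to 0.086, when NFI-C2 replicate 1 or 3 or wild type replicate 1 or 3 was left out. After quantile normalisation Gadd45g rose by 1.2 in FoxF1 and 0.94 in NFI-C2 cells and no longer differed beyond the threshold between them (0.26, adjusted p = 0.38), and the difference of Gadd45b between FoxF1 and NFI-C2 cells was -0.24.

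The 250 bases before the RefSeq start of each Gadd45 gene are shown (build GRCm38.p6, read 5′ to 3′ on the strand of the gene), since this family went in 2 directions from promoters that share elements. Capitals mark the CCAAT box (CCAAT) and the octamer (ATTTGCAT), each on either strand. The windows are chr6:67037408-67037657 on the minus strand for Gadd45a, chr13:51846425-51846674 on the plus strand for Gadd45g and chr10:80929841-80930090 on the plus strand for Gadd45b.
Gadd45a: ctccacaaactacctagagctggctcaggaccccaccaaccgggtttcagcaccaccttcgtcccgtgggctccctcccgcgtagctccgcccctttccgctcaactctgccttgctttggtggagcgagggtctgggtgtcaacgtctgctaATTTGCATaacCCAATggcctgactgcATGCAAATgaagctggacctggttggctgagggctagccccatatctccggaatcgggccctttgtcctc
Gadd45g: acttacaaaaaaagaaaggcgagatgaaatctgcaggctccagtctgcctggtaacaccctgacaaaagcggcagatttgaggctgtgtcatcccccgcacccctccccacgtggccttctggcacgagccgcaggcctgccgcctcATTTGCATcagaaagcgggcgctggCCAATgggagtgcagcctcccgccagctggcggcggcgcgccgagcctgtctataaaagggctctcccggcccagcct
Gadd45b: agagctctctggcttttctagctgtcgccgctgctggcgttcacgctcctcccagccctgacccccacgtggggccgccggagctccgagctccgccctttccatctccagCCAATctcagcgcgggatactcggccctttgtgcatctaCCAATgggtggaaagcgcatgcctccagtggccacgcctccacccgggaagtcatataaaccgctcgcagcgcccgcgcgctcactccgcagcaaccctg

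The Gadd45a window held 2 octamers and 1 CCAAT box, that of Gadd45g 1 of each, and that of Gadd45b 2 CCAAT boxes and no octamer. Of 32817 RefSeq windows of this length, 1.6% held an octamer, 0.0975% held 2 or more, and 33.8% held a CCAAT box. The octamer, which POU factors bind, stood in the windows of Gadd45a and Gadd45g, which rose in FoxF1 cells, and not in that of Gadd45b, which fell. This is a description of 3 windows, and the motifs were chosen after the sequences and the values had been seen. The forkhead core GTAAACA stood in 3.16% of all windows and in none of the windows of the 10 genes. The NFI core TTGGC stood in 41.5% of all windows and in 7 of the 13 windows of the 10 genes (53.8%), 1 window in each of 7 genes, where it overlapped a CCAAT box in Gadd45b, Gadd45g and Map2k3. Its full palindrome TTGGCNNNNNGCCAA stood in 0.0366% of all windows and in none of these. All motifs were searched on both strands, and a missing match says only that these letters are not in the window.

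Of the kinases that phosphorylate p38, Map2k6 changed in both cell types and Map2k3 in neither. Map2k6 read -1.42, -1.5 and -1.60 on the FoxF1 arrays, 0.56, 0.61 and 0.53 on the NFI-C2 arrays and 0.011, 0 and -0.0099 on the wild type arrays. The 3 groups were well separated, with wild type between both others. Map2k6 fell by 1.51 (SE 0.045, adjusted p = 1.7e-07) in FoxF1 cells and rose by 0.57 (SE 0.045, adjusted p = 1.5e-04) in NFI-C2 cells. FoxF1 cells held 23.7% of the level in NFI-C2 cells, a difference of -2.08 (adjusted p = 3.2e-08). Map2k3, which encodes the closely related MKK3, lay between -0.080 and 0.069 on all 9 arrays. Its difference was -0.02 (95% confidence interval -0.085 to 0.039, adjusted p = 0.57) in FoxF1 and 0.05 (-0.014 to 0.11, adjusted p = 0.30) in NFI-C2 cells. Between FoxF1 and NFI-C2 cells Map2k3 differed by -0.07 (adjusted p = 0.070).

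Of the 4 p38 kinases, 3 fell in FoxF1 cells. Mapk13 (p38δ), an isoform found mainly in epithelia, read -3.27, -3.70 and -3.65 on the FoxF1 arrays, 0.22, 0 and 0.22 on the NFI-C2 arrays and 0.039, 0.029 and -0.020 on the wild type arrays. The FoxF1 arrays lay far below the other 6, and NFI-C2 and wild type overlapped. Mapk13 fell by 3.56 (SE 0.12, 95% confidence interval -3.83 to -3.28, adjusted p = 2.6e-07), the 118th largest of the decreases over all genes. Its difference in NFI-C2 cells was 0.13 (-0.14 to 0.40, adjusted p = 0.53), and FoxF1 cells were at 7.76% of NFI-C2 cells (adjusted p = 1.9e-07).

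The genes nearest to Mapk13 by Euclidean distance over the 9 arrays were Cxcl5 (0.393), a neutrophil chemokine, Cd200 (0.453), an immune-regulatory membrane protein, and Tcim (0.477). Their log2 differences in FoxF1 cells were -3.74, -3.61 and -3.71, close to that of Mapk13. In NFI-C2 cells they were -0.06, -0.12 and 0.03. These genes were chosen for likeness over all arrays, so their agreement is a description.

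The window before the start of Mapk13, chr17:28769067-28769316 on the plus strand of GRCm38.p6, is shown because it is the promoter of the p38 gene with the largest change. Capitals mark the E-box CAGGTG on either strand.
Mapk13: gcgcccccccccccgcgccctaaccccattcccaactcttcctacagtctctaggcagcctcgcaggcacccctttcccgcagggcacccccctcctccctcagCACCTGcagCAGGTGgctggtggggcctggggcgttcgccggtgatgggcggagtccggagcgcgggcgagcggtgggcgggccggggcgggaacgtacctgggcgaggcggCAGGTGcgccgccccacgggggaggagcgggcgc
It held 3 matches, where 17.2% of all windows held at least 1 and 0.247% held 3 or more. Of the other 9 genes Mapk12 had 1 match and 8 had none, so that 2 of the 5 genes that fell in FoxF1 cells held the motif, and Mapk11, Map2k6 and Gadd45b, which also fell, did not. The motif was chosen after the sequence had been seen, and no binding was measured.

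Mapk12 (p38γ), best known from muscle, was -1.09, -0.97 and -0.77 in FoxF1, 0.33, 0.26 and 0.28 in NFI-C2 and -0.075, 0.041 and 0 in wild type cells. The groups did not overlap, and wild type lay between both others, as for Map2k6. Mapk12 fell by 0.93 (SE 0.076, adjusted p = 3.6e-05) in FoxF1 cells and was higher by 0.30 (SE 0.076, adjusted p = 0.028) in NFI-C2 cells, with a difference of -1.23 between them (adjusted p = 6.3e-06). The call in NFI-C2 cells was lost when any of the NFI-C2 or wild type arrays was left out, with adjusted p of 0.053 to 0.088. Mapk11 (p38β) read -0.19, -0.21 and -0.21 in FoxF1, 0.016, 0 and 0.18 in NFI-C2 and 0, 0.047 and 0.034 in wild type cells. Only the FoxF1 arrays stood apart. It fell by 0.23 (SE 0.046, adjusted p = 0.0049) in FoxF1 cells, and in NFI-C2 cells its difference was 0.04 (-0.069 to 0.15, adjusted p = 0.66).

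Mapk14 (p38α), the isoform expressed in most tissues, was 0.078, 0.15 and 0.10 in FoxF1, -0.21, -0.24 and -0.21 in NFI-C2 and 0, 0.075 and 0 in wild type cells. It was lowest on the 3 NFI-C2 arrays. Mapk14 fell by 0.25 (to 84.2%, SE 0.028, adjusted p = 8.1e-04) in NFI-C2 cells. In FoxF1 cells its difference of 0.08 (SE 0.028, 95% confidence interval 0.018 to 0.15) missed the threshold with adjusted p = 0.0502 and did not overlap wild type. It passed without FoxF1 replicate 1 (adjusted p = 0.045) or wild type replicate 2 (adjusted p = 0.017), and not without any of the other 7 arrays (adjusted p of 0.066 to 0.15). After quantile normalisation it was 0.022 (adjusted p = 0.74). Mapk14 was higher in FoxF1 than in NFI-C2 cells by 0.33 (adjusted p = 4.1e-05).

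The 4 p38 genes lie as 2 neighbouring pairs (build NCBIM37). Mapk12 (chr15:88961014-88971051) and Mapk11 (chr15:88972912-88980036) are both on the minus strand, 1.9 kb apart, and both fell in FoxF1 cells, by 0.93 and 0.23. Mapk14 (chr17:28828287-28885350) and Mapk13 (chr17:28906293-28915649) are both on the plus strand, 20.9 kb apart, and their FoxF1 differences were 0.08 and -3.56. Map2k6 (chr11:110260436-110386836) and Map2k3 (chr11:60745557-60766309) share a chromosome but are far apart. The Gadd45 genes lie on chromosomes 6, 10 and 13.

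**Figure D2:**
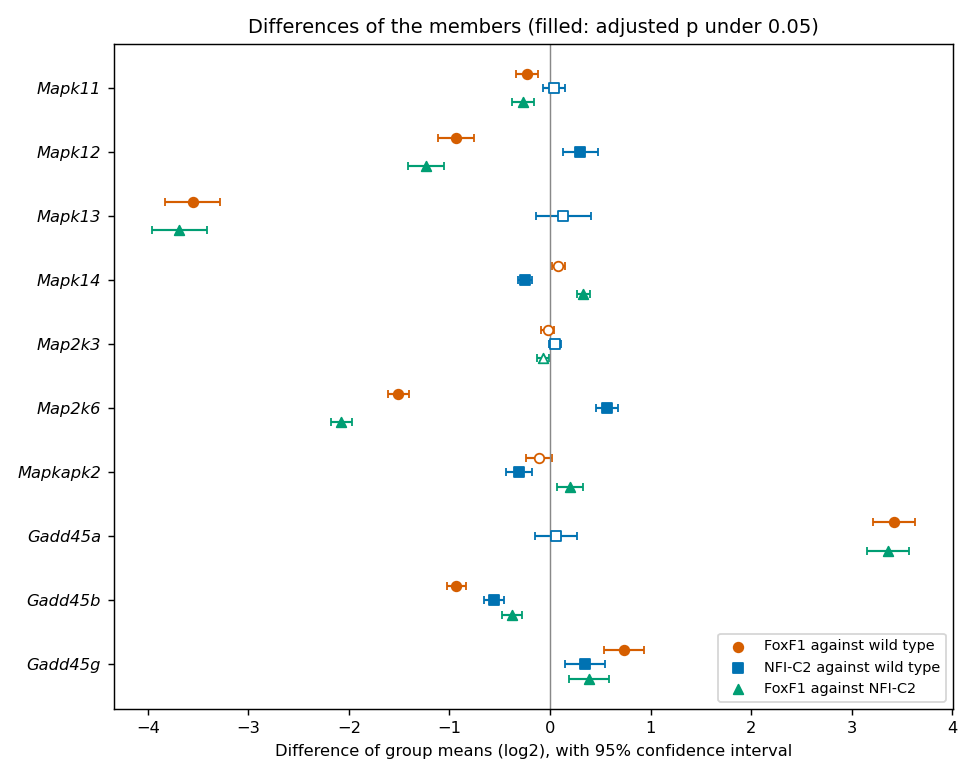
Log2 difference of group means of the 10 genes with 95% confidence intervals, for FoxF1 and NFI-C2 cells each against wild type and for FoxF1 against NFI-C2 cells; filled symbols passed the adjusted p of 0.05. Mapk12 and Map2k6 have filled symbols below 0 in FoxF1 and above 0 in NFI-C2 cells, each against wild type. Only Map2k3 has no filled symbol.

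The size of several differences moved under quantile normalisation, which gives the 9 arrays 1 distribution. It was applied to values already centred by cluster, where FoxF1 arrays were the most dispersed. By construction it draws in the FoxF1 arrays and spreads the others, so these shifts do not measure how uncertain the sizes are. The FoxF1 differences were then -1.69 for Mapk13, -0.78 for Map2k6 and -0.49 for Mapk12, and all 3 stayed past the threshold. Mapk13 then differed by -1.82 between FoxF1 and NFI-C2 cells. Gadd45a rose by 2.78.

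Of the 10 genes, Mapk12 and Map2k6 fell in FoxF1 and rose in NFI-C2 cells, Gadd45b fell in both, Gadd45g rose in both, and no gene rose in FoxF1 and fell in NFI-C2 cells. Map2k3 passed in no comparison. For Map2k6, the member with the largest difference in NFI-C2 cells, the nearest genes over the 9 arrays were Ephx1 (0.195), Ntng1 (0.208) and Rhbdf2 (0.285). Ephx1 encodes microsomal epoxide hydrolase. Their differences in FoxF1 cells were -1.46, -1.49 and -1.55, and in NFI-C2 cells 0.64, 0.61 and 0.47.

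Below p38, Mapkapk2 (MK2) and its relative Mapkapk3 (MK3) differed in their pattern. Mapkapk2 was -0.014, 0 and 0.027 in FoxF1, -0.22, -0.22 and -0.14 in NFI-C2 and 0.070, 0.25 and 0.032 in wild type cells. Wild type was highest and NFI-C2 lowest. Mapkapk2 fell by 0.31 (to 80.6%, SE 0.055, adjusted p = 0.0063) in NFI-C2 cells, and in FoxF1 cells its difference of -0.11 (-0.24 to 0.017, adjusted p = 0.16) did not pass. That difference was -0.047 (adjusted p = 0.33) without wild type replicate 2 and -0.20 (adjusted p = 0.069) after quantile normalisation. FoxF1 cells were above NFI-C2 cells by 0.20 (adjusted p = 0.022), a call lost without FoxF1 replicate 2 or 3 or NFI-C2 replicate 1 or 2 (adjusted p of 0.056 to 0.070).

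Mapkapk3 was -1.43, -1.51 and -1.60 in FoxF1, 0.89, 0.77 and 0.95 in NFI-C2 and -0.011, 0.061 and 0 in wild type cells. Hspb1, which encodes the MK2 substrate Hsp27, was -1.81, -1.86 and -1.82 in FoxF1, 0.58, 0.52 and 0.61 in NFI-C2 and 0, 0.0032 and -0.057 in wild type cells. Both had the order of Map2k6 and Mapk12, with FoxF1 lowest and NFI-C2 highest. They come from lists of 5 and 16 tested genes, given below, which were chosen with earlier results known. Other genes of these lists do not share this order, and Mknk1, Rps6ka5 and Elavl1 rose in FoxF1 cells. Mapkapk3 fell by 1.53 (adjusted p = 4.7e-07) in FoxF1 and rose by 0.86 (adjusted p = 5.9e-05) in NFI-C2 cells. Hspb1 fell by 1.81 (adjusted p = 1.1e-08) and rose by 0.59 (adjusted p = 1.7e-05). The differences between FoxF1 and NFI-C2 cells were -2.39 and -2.40.

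**Figure D3:**
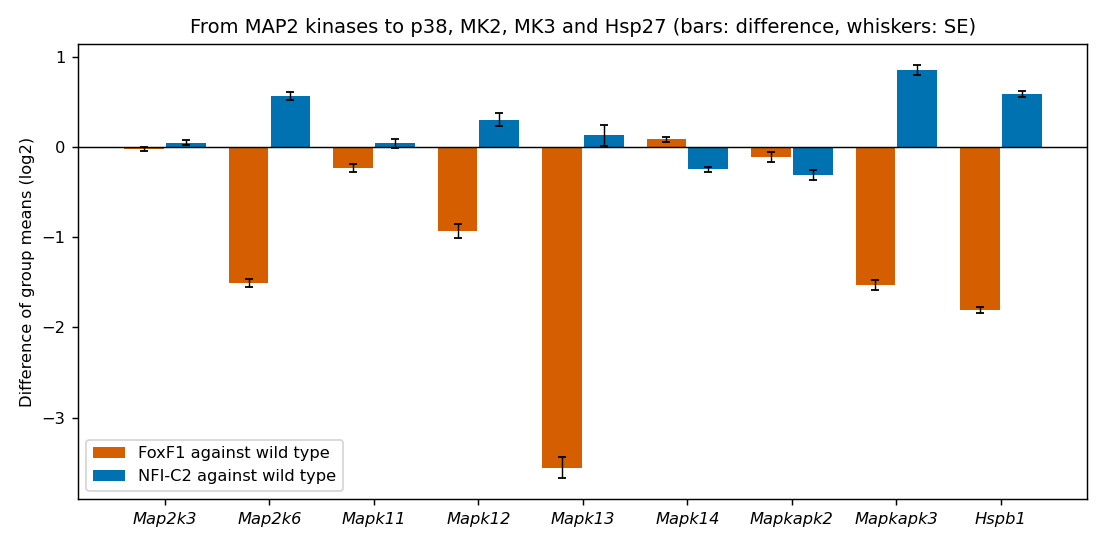
Log2 differences from wild type (bars, whiskers SE) along the route from MAP2 kinases through p38 to MK2, MK3 and Hsp27, in FoxF1 and NFI-C2 cells. Map2k6, Mapk12, Mapkapk3 and Hspb1 fell in FoxF1 and rose in NFI-C2 cells. Mapk11 and Mapk13 fell in FoxF1 cells, and their NFI-C2 bars, above 0, did not pass the test. Map2k3 stays near 0 in both. Mapkapk3 and Hspb1 come from longer lists chosen with earlier results known. Mknk1 and Rps6ka5, which p38 also activates, rose in FoxF1 cells and are not drawn.

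Another 106 genes of the pathway were taken in 9 lists, of which 95 were tested. In FoxF1 cells 31 rose and 24 fell (57.9% called, against 39.0% of all genes), and in NFI-C2 cells 9 rose and 24 fell (34.7%, against 20.8%). The count of each list below stands beside the shares over all genes. These were 20.2% higher and 18.8% lower in FoxF1 cells, and 8.59% higher and 12.2% lower in NFI-C2 cells. Genes of these lists named as risen or fallen had SEs of 0.029 to 0.15 and adjusted p of at most 0.043. Of 21 upstream kinases and adaptors, 4 rose and 4 fell in FoxF1 cells (38.1% called, near the share over all genes, median 0.0067). Among them Map3k4, the kinase that Gadd45 proteins bind, rose by 0.66, the kinase Taok3 by 0.71 and the p38-binding adaptor Tab1 by 0.56, while Map3k1 fell by 0.89, Taok1 by 0.88 and Map3k7 (TAK1) by 0.29. In NFI-C2 cells 3 rose and 6 fell (median -0.047). Map3k20 rose by 0.46, Map3k1 by 0.31 and Map3k6 by 0.19, and Map3k7 fell by 0.61, Map3k5 (ASK1) by 0.43 and Taok3 by 0.34. Map3k1 and Taok3 moved in opposite directions in FoxF1 and NFI-C2 cells.

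Of 5 other kinases activated by p38, Mknk1 rose by 0.78 and Rps6ka5 (MSK1) by 0.32 in FoxF1 cells, and Mapkapk3 was the 1 that fell and, in NFI-C2 cells, the 1 that rose. Of 11 transcription factors phosphorylated by p38, 7 rose and none fell in FoxF1 cells (median 0.26). The stress factor Ddit3 (CHOP) rose by 1.79, Atf1 by 0.51 and Max by 0.39. The count of 7 was 4 without wild type replicate 3 and 3 after quantile normalisation. Over all genes 6681 and 5722 were then called, in place of 7215. In NFI-C2 cells Mef2c and Mef2d each fell by 0.26 and the other 9 did not pass, a count of 2 that became 0 without wild type replicate 1 or 2 and 1 without wild type replicate 3, NFI-C2 replicate 2 or 3 or FoxF1 replicate 2.

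Of 12 phosphatases and scaffolds, which switch p38 off or gather its cascade, 3 rose and 4 fell in FoxF1 cells (median 0.018). The phosphatase Dusp4 fell by 1.81, Ppm1d (Wip1) by 0.78 and Dusp16 by 0.32. Dusp1 rose by 0.51, Dusp10 by 0.50 and Ppm1a by 0.40. In NFI-C2 cells Dusp4 fell by 1.23, Ccm2 by 0.43 and Dusp8 by 0.36, as 3 of 4 that fell, and the scaffold Spag9 rose by 0.17.

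The 16 genes of MK2 substrates and of mRNAs controlled by p38 and MK2 had the lowest list median in FoxF1 cells among the pathway lists (-0.61, with 3 higher and 8 lower). The cytokine Il6 fell by 3.10, the chemokine Cxcl1 by 2.83 and Hspb1 by 1.81. Il6 read -0.59 on 2 FoxF1 arrays, which share its lowest value, and -0.37 on the other. Plaur, the urokinase receptor, rose by 1.15, the mRNA decay factor Zfp36l2 by 0.94 and the RNA-binding protein Elavl1 (HuR) by 0.16. The relatives of Zfp36l2 went the other way, since Zfp36 (difference -0.84) and Zfp36l1 (-1.801) both fell in FoxF1 cells. In NFI-C2 cells 2 rose and 7 fell (median -0.14). Il6 fell by 2.56, Cxcl2 by 1.54 and Plaur by 0.63, and the collagenase Mmp13 rose by 0.89 and Hspb1 by 0.59.

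Of 13 partners and regulators of p53 and Gadd45, 6 rose and 5 fell in FoxF1 cells (median -0.12). Sesn2 rose by 1.29, Atf4 by 1.10 and Ccng1 by 0.59. Atf4 encodes a stress transcription factor. Mdm2, which encodes the p53 ubiquitin ligase, fell by 0.43, Btg2 by 0.40 and Trp73 by 0.38. The p53 targets Sesn2 and Ccng1 thus rose while the p53 targets Mdm2 and Btg2 fell. Since HC11 cells carry a mutant p53, these genes are not read as a measure of p53 activity, which was not tested. In NFI-C2 cells Sesn1 rose by 1.16 and 4 fell, with Pcna lower by 0.43, Ccnd1 by 0.37 and Mdm2 by 0.28. Trp53, Cdkn1a and Bax had no cluster of 1 symbol and were not analysed here.

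The neighbouring MAP kinase branches, JNK and ERK, were read in the same way. In FoxF1 cells 14.3% of the JNK and 57.1% of the ERK and atypical genes were called, against 39.0% of all genes. In NFI-C2 cells 14.3% of each list were called, against 20.8%. Of 7 JNK genes, Mapk9 (JNK2) rose by 0.19 in FoxF1 cells, a call lost without FoxF1 replicate 1 or 3, NFI-C2 replicate 1 or wild type replicate 1 or 3, and Map2k4, which encodes MKK4, fell by 0.21 in NFI-C2 cells, where 2 of the 7 passed without wild type replicate 1 or 3. Of 7 ERK and atypical MAP kinase genes, 4 rose in FoxF1 cells, with Mapk6 (ERK3) by 0.69, Mapk7 (ERK5) by 0.44 and Map2k1 (MEK1) by 0.39, and Mapk6 rose by 0.26 in NFI-C2 cells. Of 4 further genes of proteins the study examined, Bcar1, which encodes p130Cas, was 0.56, 0.53 and 0.46 in FoxF1, 0.0093, -0.12 and -0.11 in NFI-C2 and 0, -0.11 and -0.20 in wild type cells. It rose by 0.62 (SE 0.059, adjusted p = 8.9e-05) in FoxF1 cells and differed by 0.03 (adjusted p = 0.82) from wild type in NFI-C2 cells. Hdac1 fell by 0.49 and Smad3 by 0.31 in FoxF1 cells. Smad3 fell by 0.27 in NFI-C2 cells, a call lost without NFI-C2 replicate 2 or 3 or any wild type array. Smad2 did not pass in FoxF1 cells (-0.15, adjusted p = 0.10) or in NFI-C2 cells (-0.04, adjusted p = 0.74). Ptk2, which encodes FAK, was not among the genes tested.

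**Figure D4:**
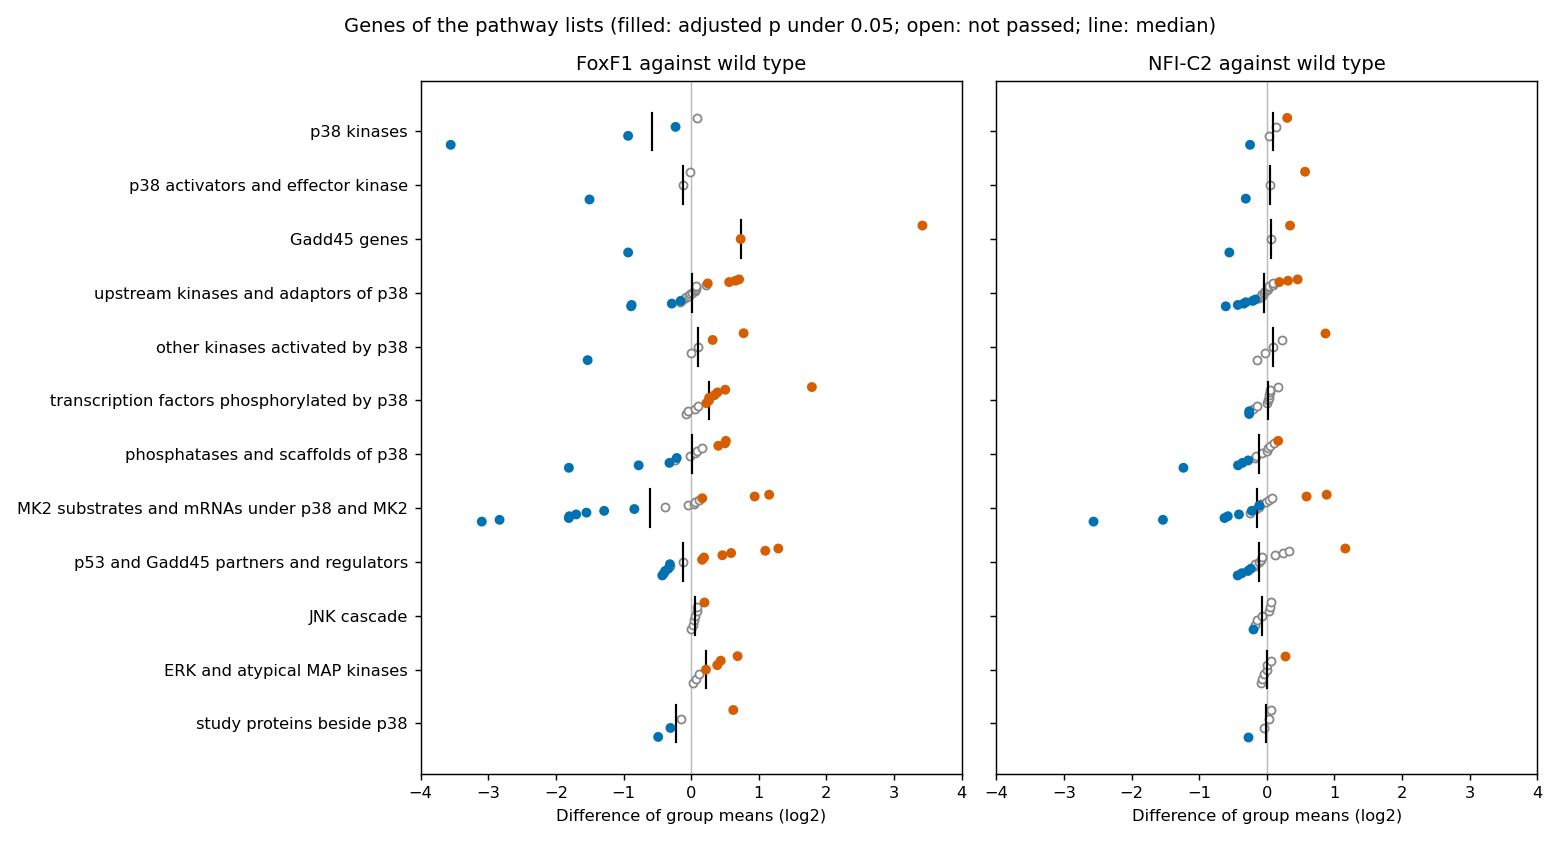
Log2 difference from wild type of every tested gene of the member and pathway lists in FoxF1 (left) and NFI-C2 cells (right), 1 point per gene, filled where the adjusted p was under 0.05, with a line at each list's median. The MK2 list has its FoxF1 median at -0.61 and the p38-phosphorylated transcription factors at 0.26.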

How the data were processed

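Expression was measured on 9 arrays, 3 per group. Per the labels the authors processed them with RMA, of which the version is not given in the sources used here. Deposited were log2 values for 28815 transcript clusters, each with a median of 0 over the 9 arrays. The other value table differed by at most 5.0e-08. A further table gives p-values of the authors' own comparison of the groups and was not used. Labels and methods differ on the RNA kit and the dose of epidermal growth factor.

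The platform annotation gave 1 symbol to 21780 clusters, several to 1605 and none to 5430, and only the first were used. Where a gene had several clusters (998 genes), that with most probes was taken. Of 19935 genes, 1438 were constant and left out. Arrays were tied at the lowest value (within 1e-06) in 8566 clusters, none of them of the 10 genes. Python 3.11.15 with pandas 2.3.3 and NumPy 2.4.6 read the tables and matplotlib 3.10.9 drew the figures.

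limma 3.58.1 in R 4.3.3 fitted 3 group means with moderated variances (prior degrees of freedom 1.29, residual 6) and two-sided tests, with Benjamini-Hochberg adjustment over 18497 genes. The fit was tested on simulated data. The number of arrays limits the precision. Alternatives were quantile normalisation, array centring, tied genes left out, the mean of clusters, all clusters tested, 2 groups per fit, other variance models, a test against 1.5-fold, a replicate block and each array left out.

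Members, lists and tests were chosen with earlier results of these data known. Named were all members, up to 3 higher and 3 lower genes of each list per comparison with wild type, Bcar1, Foxf1 and Nfic. Also named were the 3 genes nearest to the member of largest change, with predicted and RIKEN symbols passed over. Zfp36, Zfp36l1 and Smad2 were added beside their relatives. Positions are those of the deposited annotation (NCBIM37). Promoter windows are from RefSeq (GRCm38.p6), in which all 10 genes were matched, with 13 windows.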

Additional observations from a re-analysis of the deposited data

How the results depend on the processing

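Array centring changed nothing, since every array has a median of 0. Of 19 alternatives for each of the 10 genes, 184 of 190 in FoxF1 cells, 169 of 190 in NFI-C2 cells and 180 of 190 between both kept the direction and the side of the threshold. Direction turned for 3 differences that were not called: Map2k3 in FoxF1 cells without FoxF1 replicate 2 (0.0030, lowest -0.037 over the arrays left out), Mapk11 in NFI-C2 cells without NFI-C2 replicate 3 (-0.019, highest 0.071) and Gadd45a in NFI-C2 cells without wild type replicate 3 (-0.045, highest 0.14). Leaving out each array, the number of the 10 genes called was 7 to 8 in FoxF1 cells (2 to 3 higher and 5 lower), 4 to 6 in NFI-C2 cells (1 to 3 higher and 3 lower) and 8 to 9 between both (3 to 4 higher and 5 lower). In the pathway lists it was 50 to 56 (26 to 31 higher, 24 to 27 lower), 25 to 31 (7 to 9, 17 to 22) and 63 to 66 (39 to 41, 24 to 25). Against a change of 1.5-fold, 5 members passed in FoxF1 cells (1 higher, 4 lower), 0 passed in NFI-C2 cells (0 higher, 0 lower) and 4 passed between both (1 higher, 3 lower). The lists then had 17 genes called (5 higher, 12 lower) in FoxF1 cells, 4 (1 higher, 3 lower) in NFI-C2 cells and 16 (6 higher, 10 lower) between both, and all genes 1923, 306 and 2240 in place of 7215, 3852 and 7770. That test asks for a larger change by construction. Without moderation 1 member was higher in NFI-C2 cells in place of 3, since Mapk12 (adjusted p = 0.058) and Gadd45g (adjusted p = 0.056) did not pass. Mapk14 passed in FoxF1 cells with the mean of clusters (adjusted p = 0.0499). The main fit treated the arrays as unpaired, and whether the shared replicate numbers pair them was not settled. Correlations of same-numbered deviations were weak and all positive (0.00051 to 0.18), and 11 of 18 best matches had the same number. With the replicate block, 7306, 3904 and 7844 genes were called, and Gadd45g in NFI-C2 cells had an adjusted p of 0.058, while the block changed no other member's call. The cause of the other changes was not tested. Values are centred, so that signal over background cannot be judged.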
